A study of Mus musculus with 12 samples.

Results

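The GATA family comprises 6 transcription factor genes, Gata1 to Gata6, which were taken by symbol, with no threshold on their measured values. All 6 were present among the 55291 gene symbols counted in each library, and all 6 passed the filter on low counts that left 18147 genes for testing. RNA was measured by low-input RNA sequencing in cells labelled as VE-cadherin-positive endothelial cells from bone marrow and lung of VECadCre-tdTomato mice, in which the VE-cadherin promoter drives Cre and tdTomato is the reporter. The 4 groups were marrow and lung of control mice without a transplant, and marrow and lung of mice that had received acute myeloid leukaemia (AML) cells of genotype Trp53(R172H/Δ). Each group had 3 libraries, and both the control and the transplanted mice carried the Cre and reporter transgenes. The labels give neither the age nor the sex of the mice, and do not say whether the 3 libraries of a group came from separate mice. The p-values therefore measure the spread between these libraries, which may be technical.

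GATA factors are zinc finger proteins that bind DNA at the core sequence GATA. Gata1, Gata2 and Gata3 are best known in blood: GATA1 drives erythroid, megakaryocyte, mast cell and eosinophil genes, GATA2 maintains stem and progenitor cells and is also made by endothelium and mast cells, and GATA3 directs T cell and innate lymphoid development and is also found in some endothelium. Gata4, Gata5 and Gata6 are best known in heart, gut, lung and other tissues of mesodermal or endodermal origin. During erythroid maturation GATA1 replaces GATA2 at shared sites, and both work with partners such as FOG1 (gene Zfpm1), TAL1, LMO2 and LDB1.

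Between 12787550 and 39163571 reads were assigned to genes per library, and no library repeated another. Levels are counts per 1e+06 assigned reads (CPM), scaled by trimmed mean of M-values (TMM) factors of 0.865 to 1.25. Marrow libraries held few transcripts of the gene that encodes VE-cadherin. Cdh5 stood at 4.91 ± 1.51 CPM (SD, n = 3) in marrow control and 0.634 ± 0.291 in marrow AML, against 188 ± 143 in lung control and 15.9 ± 14.4 in lung AML. A list of 20 endothelial genes summed to 338 to 477 CPM in marrow control, 239 to 295 in marrow AML, 3760 to 12500 in lung control and 378 to 1400 in lung AML. The list includes Tal1, which is also a partner of GATA1 in red cells. Tal1 alone stood at 91.4 ± 13.9 CPM in marrow control and 13.4 ± 8.70 in marrow AML, so the marrow sums are not of endothelial cells alone. Transcripts of other lineages were abundant: 16 erythroid genes summed to 11700 to 13400 CPM in marrow control, and 15 lung epithelial genes to 156000 to 197000 CPM in lung control and 218000 to 257000 in lung AML. In bulk RNA, a change in the number of cells of a type and a change in RNA per cell cannot be told apart, and the counts do not separate transcripts of transplanted cells from those of the host.

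**Figure D1:**
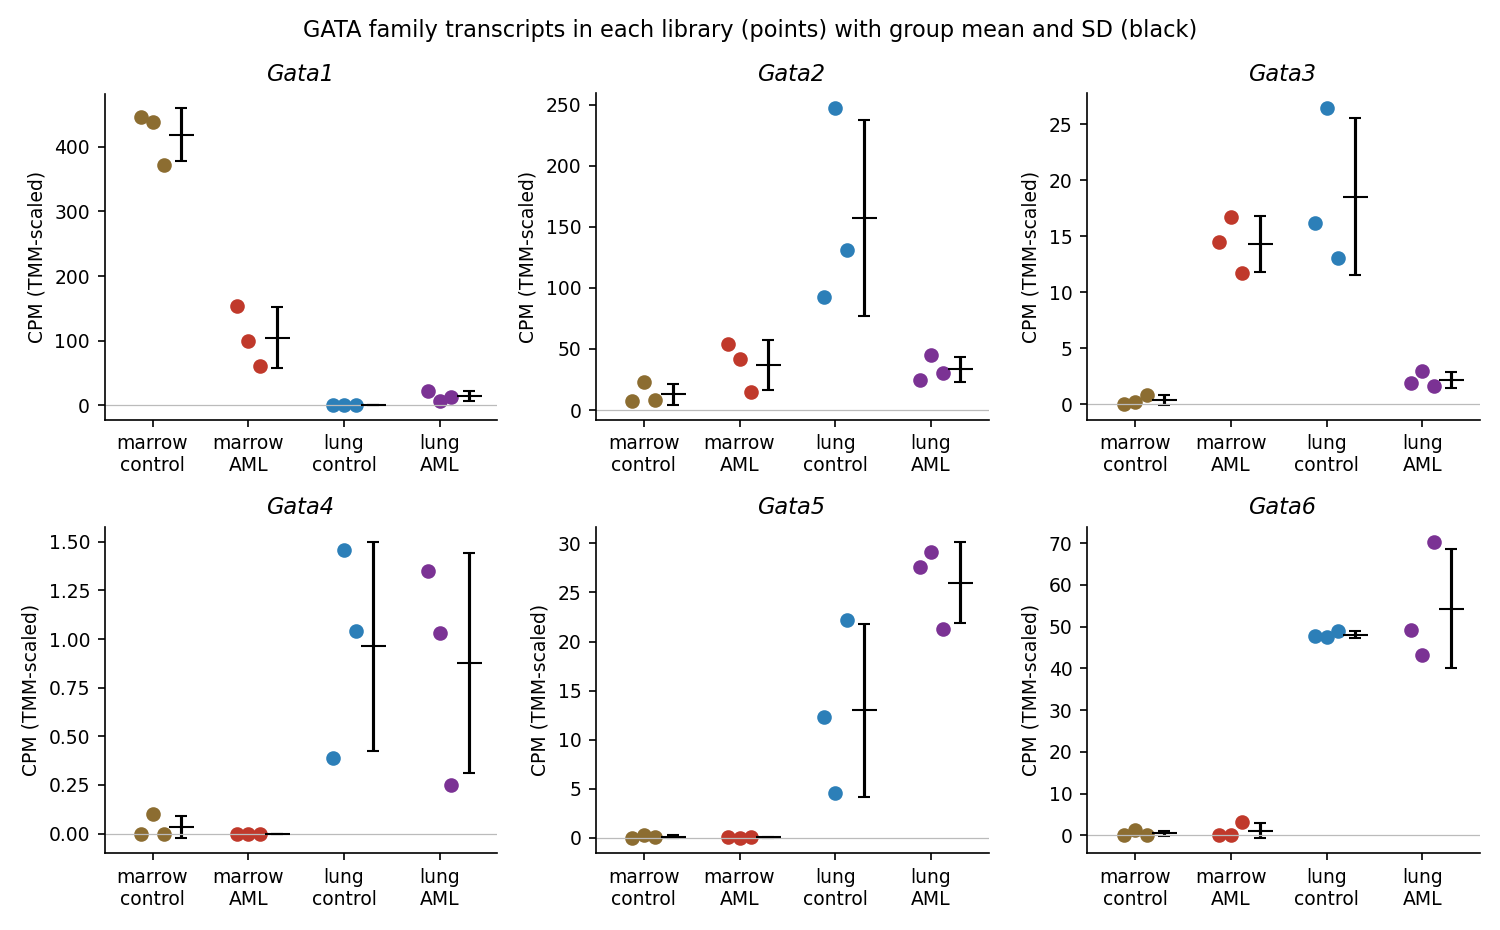
Level of each GATA gene (vertical axes, TMM-scaled CPM from 0, each panel with its own scale) in the 12 libraries of 4 groups; each point is 1 library, and the black mark with its bar is the group mean and SD of 3 libraries. Gata1 is highest in marrow control at 372 to 446 CPM, Gata2 in lung control at 92.7 to 247 CPM, and Gata4, Gata5 and Gata6 are lung transcripts in these libraries.

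The stretches before a RefSeq start site of 3 members are shown first, because Gata1, Gata2 and Gata3 are the members whose RNA differed between AML and control libraries. Each is the 250 bases before the RefSeq start site on the gene's own strand, in build GRCm38.p6, written from its 5′ end, at chrX:7967911-7968160 (minus strand) for Gata1, chr6:88193641-88193890 (plus) for Gata2 and chr2:9878601-9878850 (minus) for Gata3. The Gata1 and Gata3 windows lie wholly inside the annotated bounds of their own genes, before start sites internal to them, and the Gata3 window also lies in an exon of the antisense gene Gm13256, which had 0 reads in all libraries. Capitals mark the CACCC box, a site class bound by Krüppel-like factors such as KLF1, on either strand (CACCC or GGGTG).
Gata1: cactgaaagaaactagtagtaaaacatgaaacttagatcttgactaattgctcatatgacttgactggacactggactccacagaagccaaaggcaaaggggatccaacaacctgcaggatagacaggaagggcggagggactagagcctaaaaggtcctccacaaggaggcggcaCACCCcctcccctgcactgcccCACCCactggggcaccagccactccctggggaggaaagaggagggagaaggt
Gata2: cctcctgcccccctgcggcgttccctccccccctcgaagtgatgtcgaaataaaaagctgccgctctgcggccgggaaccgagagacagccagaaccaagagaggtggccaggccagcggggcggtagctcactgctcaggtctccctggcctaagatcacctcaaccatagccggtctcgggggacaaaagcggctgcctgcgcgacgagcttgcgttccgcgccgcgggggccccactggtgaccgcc
Gata3: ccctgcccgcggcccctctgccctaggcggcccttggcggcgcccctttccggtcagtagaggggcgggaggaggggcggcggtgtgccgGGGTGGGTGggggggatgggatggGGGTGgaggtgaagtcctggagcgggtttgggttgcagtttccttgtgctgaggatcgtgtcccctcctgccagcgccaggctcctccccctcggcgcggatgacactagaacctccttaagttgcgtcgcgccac

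None of the 3 windows shown held a full GATA site (AGATAA or AGATAG on either strand, or the forms beginning with T, TGATAA or TGATAG), which 26.5% of 32851 windows of the same length in the RefSeq table held. The Gata1 window had 2 CACCC boxes, at positions -74 to -70 and -52 to -48 from the start site, and the Gata3 window had 3 on the opposite strand, where 2 of them overlap. The Gata2 window shown had none, and 52.0% of all windows held at least 1. A further RefSeq start site of Gata2 lies inside the gene, at a window of chr6:88198414-88198663 that is within an exon and is not printed; it had 1 CACCC box on the opposite strand at -235 to -231, 2 GC boxes and no full GATA site. All 3 windows shown held GGGCGG, a GC box, as did 32.7% of all windows. GC content was 54.0% for Gata1, 67.2% for Gata2 and 70.0% for Gata3. A match describes the letters of a window and shows no binding. Of the 6 members, 4 matched the promoter table; Gata4 and Gata6 had no entry.

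Gata1, the master regulator of red cell development, lies on chromosome X at 7959260 to 7978071 (GRCm38, minus strand). It was the most abundant GATA transcript in marrow and fell with AML there, while it rose in lung. Marrow control libraries 1 to 3 held 446, 438 and 372 CPM, and marrow AML libraries held 154, 99.3 and 61.4 CPM. Each AML library lay below each control library, and the groups did not overlap. The fitted difference was -2.0 ± 0.40 on the log2 scale (SE), a 3.99-fold lower level in AML (edgeR quasi-likelihood test, adjusted p = 0.00207).

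In lung, Gata1 stood at 1.22, 0.845 and 1.26 CPM in control and at 22.3, 7.19 and 12.7 CPM in AML libraries. Control lung gave 28, 22 and 34 reads and AML lung 808, 168 and 304, so that the change is read from a low but counted base. No control library reached the lowest AML library, and the difference was 3.67 ± 0.45, or 12.7-fold higher (adjusted p = 0.00366). Even so, lung AML stayed below marrow AML for Gata1, by 2.90 ± 0.41 on the log2 scale (adjusted p = 0.000239). The order of groups from high to low was marrow control, marrow AML, lung AML, lung control, and no neighbours in it overlapped.

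Gata2, the progenitor, mast cell and endothelial family member, lies on chromosome 6 at 88193891 to 88207032 (plus strand). Its fitted differences had the sign opposite to those of Gata1 in both tissues, and passed the test in marrow. Marrow control libraries held 7.59, 23.0 and 8.27 CPM, and marrow AML libraries held 54.0, 42.1 and 14.6 CPM. The highest control library exceeded the lowest AML library, so the ranges overlapped. The fitted difference of 1.51 ± 0.56 in marrow, 2.84-fold higher in AML, just passed the threshold of 0.05 (edgeR adjusted p = 0.0485). It passed in 11 of 21 alternative analyses, with log2 values of 1.13 to 2.21 and adjusted p of 0.0115 to 0.155. The call was lost without marrow control 1 (adjusted p = 0.151), marrow control 3 (0.149), marrow AML 1 (0.144), marrow AML 2 (0.0973), lung AML 1 (0.0595), lung AML 3 (0.065) or lung control 3 (0.0617), and also with limma-voom (0.155), with no filter (0.0843) and with the marrow libraries alone (0.0577). The value was 2.21 without marrow control 2.

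In lung, Gata2 stood at 92.7, 247 and 131 CPM in control and at 25, 44.9 and 30.3 CPM in AML libraries. The groups did not overlap, with lung control 2 the highest of all 12 libraries. The difference of -2.23 ± 0.57, a 4.70-fold lower level, missed the threshold over all genes (edgeR adjusted p = 0.0684). It passed in 5 of 21 alternatives, among them DESeq2 (adjusted p = 0.00196), limma-voom (0.0206), a fit of the lung libraries alone (0.0254) and the fit without marrow AML 3 (0.0306), over a range of 0.00196 to 0.279. Marrow AML and lung AML were close for Gata2, at 36.9 ± 20.2 and 33.4 ± 10.3 CPM, with a fitted difference of 0.14 ± 0.55 (adjusted p = 0.854). That interval leaves room for a difference in either direction, and its sign turned to -0.25 without marrow AML 1 and to -0.05 without lung AML 1.

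Gata3, the T cell and innate lymphoid factor, lies on chromosome 2 at 9857078 to 9890034 (minus strand). It showed the greatest difference of the family in marrow. Marrow control libraries held 0.0465, 0.201 and 0.839 CPM, from 1, 4 and 14 reads, and marrow AML libraries held 14.5, 16.7 and 11.7 CPM, from 224, 436 and 336 reads. Marrow control 3 held most of the control reads, and each AML library was far above each control library. The difference was 5.34 ± 0.77, or 40.4-fold higher in AML (edgeR adjusted p = 0.000313). Its size rests on few control reads: it was 6.81 without marrow control 3 and 4.79 without marrow control 1, and passed in all 21 alternatives.

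In lung, Gata3 fell with AML, from 16.2, 26.4 and 13 CPM in control to 1.88, 3.0 and 1.66 CPM. All AML libraries lay below all control libraries, and the difference was -3.09 ± 0.66, an 8.50-fold lower level (edgeR adjusted p = 0.0376). The direction held in all 21 alternatives, with log2 values of -3.31 to -2.74, and the call in 14. It was lost without any 1 of the 6 lung libraries, at adjusted p of 0.054 to 0.186. Lung control and marrow AML overlapped in Gata3, at 18.5 ± 7.01 and 14.3 ± 2.47 CPM, while lung AML at 2.18 ± 0.715 CPM and marrow control at 0.362 ± 0.420 CPM were lower. The Gata3 locus is shared with another gene on its strand, 9230102O04Rik, which overlaps it by 6500 bases and had 143 reads in marrow AML, 0 in marrow control, 0 in lung control and 6 in lung AML. Its part in the Gata3 counts was not tested.

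Gata1, Gata2 and Gata3 each passed in marrow, 1 lower and 2 higher, so that 3 of 6 members were called where 43.8% of all tested genes were (20.4% higher and 23.5% lower). In lung, 2 of 6 members passed, Gata1 higher and Gata3 lower, against 2.33% of all genes (1.17% higher and 1.16% lower). The median fitted difference over all genes was -0.11 in marrow and 0.00 in lung. Scaling by library totals alone moved those medians to 0.16 and -0.07 and turned the split of calls from 3694 higher and 4263 lower to 4651 and 2943 in marrow, and from 212 and 211 to 182 and 273 in lung. No member that passed changed direction with that scaling or with DESeq2 size factors.

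**Figure D2:**
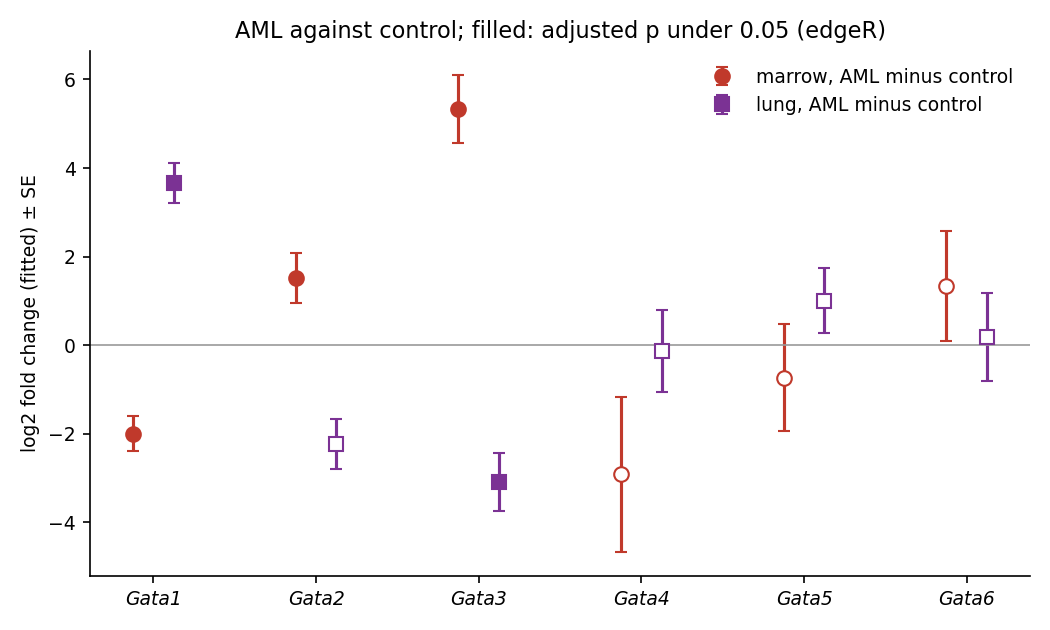
Fitted log2 fold change, AML minus control, with its SE (vertical axis) for each GATA gene in marrow (circles) and lung (squares); filled symbols passed an adjusted p of 0.05 in edgeR's test over 18147 genes. Gata1 is at -2.0 in marrow and 3.67 in lung, and Gata3 at 5.34 in marrow and -3.09 in lung, while no symbol of Gata4, Gata5 or Gata6 is filled.

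The fitted AML effects on the 3 blood members had opposite signs in marrow and lung, and the difference of the effects (marrow minus lung) was itself tested. For Gata1 it was -5.66 ± 0.60 on the log2 scale (adjusted p = 0.000188), for Gata2 3.74 ± 0.80 (0.00521) and for Gata3 8.42 ± 1.01 (0.00026). For Gata4 it was -2.79 ± 1.82 (0.284), for Gata5 -1.74 ± 1.43 (0.395) and for Gata6 1.16 ± 1.58 (0.624). Thus 3 of 6 members passed, 1 lower and 2 higher, where 30.7% of all genes did (14.6% higher and 16.1% lower; 3494 higher and 1756 lower with library totals alone, against 2642 and 2925). The calls for Gata1, Gata2 and Gata3 held in every alternative run, though the value was 9.89 for Gata3 without marrow control 3 and 4.44 for Gata2 without marrow control 2.

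The balance of Gata2 to Gata1 followed the same pattern. Of all reads of these 2 genes, Gata2 took 1.67%, 5.0% and 2.17% in marrow control libraries and 25.9%, 29.8% and 19.2% in marrow AML libraries. In lung it took 98.7%, 99.7% and 99.1% in control and 52.9%, 86.2% and 70.6% in AML libraries. The exact (Clopper-Pearson) 95% intervals of single libraries, which cover counting error only, were as wide as 50.5% to 55.2% (lung AML 1) and no interval reached a library of another group. On a log2 scale the Gata2 to Gata1 ratio was -5.21 ± 0.85 in marrow control and -1.61 ± 0.42 in marrow AML, and 7.05 ± 1.01 in lung control and 1.36 ± 1.24 in lung AML (SD, n = 3). Each difference had an exact two-sided permutation p of 0.1, the smallest that 20 splits of 3 against 3 allow. The share thus moved towards the middle in AML libraries of both tissues, from opposite ends. A ratio within a library does not depend on library scaling, but it is a share of reads, and Gata2 has the longer exon union (5398 bases against 2438).

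**Figure D3:**
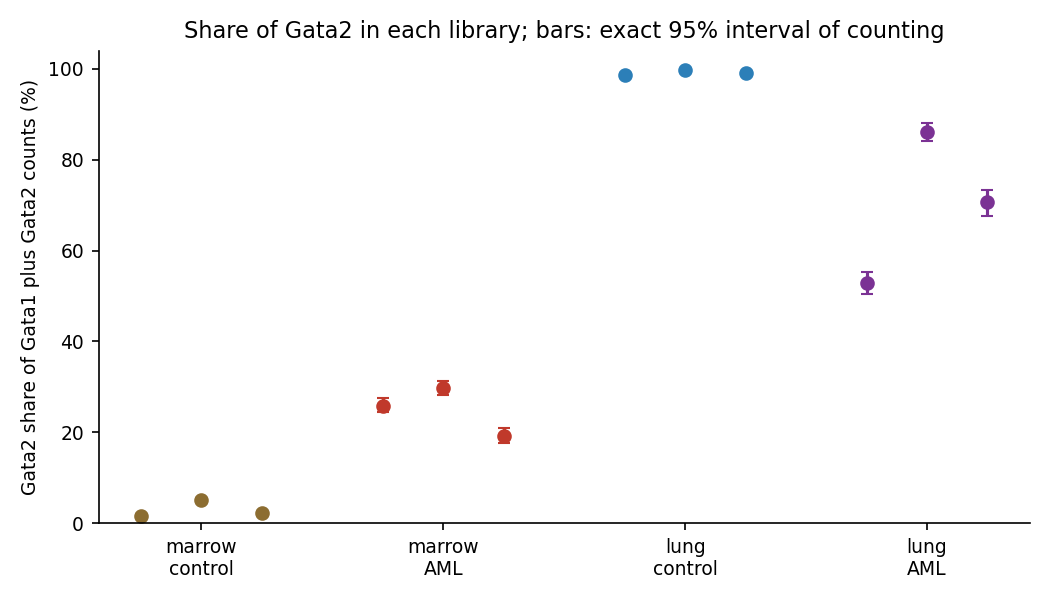
Gata2 reads as a percentage of Gata1 plus Gata2 reads (vertical axis) in each of 12 libraries, with exact 95% intervals of counting error, by group along the horizontal axis. Marrow control lies at 1.67% to 5.0% and lung control at 98.7% to 99.7%, and the AML libraries lie between them at 19.2% to 86.2%.

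Gata4, Gata5 and Gata6, the cardiac and endodermal members, were lung transcripts here and did not pass in either AML comparison, nor at an unadjusted p of 0.05, nor with DESeq2 or limma-voom. Gata6, known in the lung for its role in airway and alveolar epithelium, lies on chromosome 18 at 11052064 to 11085635. It stood at 47.7, 47.4 and 49.0 CPM in lung control and 49.2, 43.2 and 70.3 CPM in lung AML. The lung groups overlapped, with lung AML 3 the highest, and the difference was 0.18 ± 0.99 (edgeR adjusted p = 0.974). That SE is too wide to exclude a change of 2-fold in either direction. It uses a spread estimated over all 12 libraries, the marrow ones included. The lung groups stood at 48.0 ± 0.851 CPM in control and 54.3 ± 14.2 in AML, and the fitted value was -0.05 to 0.38 in the alternatives. In marrow, Gata6 gave 1, 24 and 2 reads in control and 0, 2 and 93 in AML libraries. The high library, marrow AML 3, was also the highest of its group in the summed lung epithelial list (1640 CPM against 381 and 302), and marrow control 2 was the highest of its own (2520 CPM against 403 and 667). Per 100 reads of that list, however, Gata6 had 0.198 reads in marrow AML 3. It had 0.0116 to 0.0479 in marrow control, 0.0248 to 0.0304 in lung control and 0.0168 to 0.0322 in lung AML. The part of lung epithelial transcripts in the marrow Gata6 reads was not tested. The fitted Gata6 difference in marrow, 1.33 ± 1.24 (adjusted p = 0.407), turned to -3.15 without marrow AML 3.

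Gata5, known in endocardium and gut, lies on chromosome 2 at 180325133 to 180334699. It stood at 12.3, 4.57 and 22.2 CPM in lung control and 27.6, 29.1 and 21.3 CPM in lung AML. The lung groups overlapped, since lung control 3 exceeded lung AML 3, and the difference of 1.0 ± 0.73 did not pass (edgeR adjusted p = 0.599). Marrow libraries held 0 to 6 reads of Gata5 in control and 0 to 4 in AML, with a fitted difference of -0.74 ± 1.21 (adjusted p = 0.649) that turned to 1.24 without marrow control 2. The antisense gene Gata5os overlaps Gata5 by 1843 bases, and reads were counted without strand, so the 2 cannot be told apart there; Gata5os had 25 reads in lung control, 65 in lung AML and 0 in marrow.

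Gata4, a cardiac and mesothelial factor on chromosome 14 at 63198922 to 63271692, was the rarest member. Lung libraries held 9, 38 and 28 reads in control and 49, 24 and 6 in AML, or 0.962 ± 0.538 and 0.877 ± 0.567 CPM. The ranges overlapped, and neither direction was resolved: the lung difference of -0.13 ± 0.93 (edgeR adjusted p = 0.981) turned to 0.31 without lung AML 3 and to 0.29 without lung control 2. Marrow held 2 reads in all of control, both in library 2, and 0 in AML, and both are under the floor of 3 reads. The fitted marrow difference of -2.92 ± 1.75 (adjusted p = 0.205) was 0.00 without marrow control 2. Of 10 cardiac and mesothelial genes listed, 6 were tested. In marrow AML 1 rose (Tbx5, 5.55 ± 1.67, edgeR adjusted p = 0.0195), where 20.4% of all genes did. In lung AML 0 passed in edgeR, with 2 at an unadjusted p under 0.05, 1 with DESeq2 and 1 with limma-voom, each higher.

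The tissues differed in every member before any transplant. Marrow control against lung control, Gata1 was 377-fold higher (8.56 ± 0.54 on the log2 scale, edgeR adjusted p = 5.46e-07). Gata2 was 12.1-fold lower in marrow (-3.60 ± 0.61, adjusted p = 0.000345) and Gata3 52.4-fold lower (-5.71 ± 0.78, 7.53e-05). Gata5 and Gata6 were each 103-fold lower in marrow (adjusted p = 0.000156 and 0.00113), and Gata4 had 2 reads against 75, a ratio of 28.6 with a 95% counting interval of 7.66 to 241 (adjusted p = 0.00886). The sizes for members rare in marrow rest on single libraries. Without marrow control 2 the log2 difference went from -6.69 to -8.69 for Gata5, from -6.68 to -9.16 for Gata6, from -4.62 to -7.57 for Gata4 and from -3.60 to -4.32 for Gata2. Without lung control 3 the Gata5 value was -6.09, without marrow control 1 it was -6.10, and without marrow control 3 the Gata3 value was -7.20. Between the control tissues 6 of 6 members passed, 1 higher and 5 lower, where 64.2% of all genes did (29.4% higher and 34.7% lower). No member's ranges overlapped there, but the share of all genes without overlap was not counted.

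Between the AML groups, 5 of 6 passed, 2 higher and 3 lower in marrow, against 47.6% of all genes (22.4% higher and 25.2% lower; with library totals alone 5770 higher and 3386 lower, in place of 4065 and 4575). Gata3 crossed over: it was 52.4-fold lower in marrow than in lung in controls, and 6.55-fold higher in marrow than in lung with AML (2.71 ± 0.65, edgeR adjusted p = 0.00556). Gata5 was 345-fold lower and Gata6 46.0-fold lower in marrow AML, and Gata4 at least 22.1-fold lower, taking 3 reads over the group as the floor for its 0. Marrow AML 3 held 93 of the Gata6 reads of its group and 4 of the Gata5 reads. Without it the log2 differences went from -5.52 to -10.02 for Gata6 and from -8.43 to -9.77 for Gata5, and without marrow AML 2 the Gata5 value was -7.83. These comparisons share libraries with those of AML against control, so their values are given side by side.

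Per kilobase of exon, which allows genes to be compared, Gata1 led in marrow at 172 ± 16.6 CPM per kb in control and 43.1 ± 19.1 in AML, against 2.40 ± 1.62 and 6.84 ± 3.74 for Gata2. In marrow AML, Gata3 followed at 3.59 ± 0.621. In lung control the order was Gata2 (29.1 ± 14.9), Gata6 (7.37 ± 0.131), Gata3 (4.66 ± 1.76) and Gata5 (3.97 ± 2.69), with Gata1 at 0.454 ± 0.0934 and Gata4 at 0.247 ± 0.138. In lung AML, Gata6 (8.34 ± 2.18), Gata5 (7.93 ± 1.27), Gata2 (6.19 ± 1.91) and Gata1 (5.77 ± 3.14) lay within 1 SD of their neighbours in that order, and Gata3 (0.548 ± 0.180) and Gata4 (0.225 ± 0.145) were lower.

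Among 14 partners and cofactors, 7 fell and 4 rose in marrow AML, with a median log2 difference of -0.63. In lung AML 2 fell and 0 rose, with a median of -0.05. Over all genes, 43.8% were called in marrow (20.4% higher and 23.5% lower) and 2.33% in lung. Transcripts of 4 partners of GATA1 in red cells fell in marrow, while Ldb1 rose. Zfpm1, which encodes the GATA1 cofactor FOG1, went from 252 ± 105 to 24.6 ± 12 CPM (-3.36 ± 0.50, edgeR adjusted p = 0.000366), and Tal1, a helix-loop-helix factor of the complex, from 91.4 ± 13.9 to 13.4 ± 8.70 CPM (-2.78 ± 0.55, 0.00191). Lmo2, the bridging LIM protein, went from 292 ± 44.4 to 47.1 ± 32.7 CPM (-2.64 ± 0.45, 0.000884), and Tcf3, the E protein that pairs with TAL1, from 332 ± 67.1 to 63.8 ± 33.7 CPM (-2.38 ± 0.35, 0.000363). Ldb1, which joins these complexes at enhancers, was 0.46 ± 0.13 higher (0.0155).

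The other 3 partners that rose in marrow AML were Spi1, Runx1 and Cbfa2t3. Spi1, which encodes PU.1 and antagonises GATA1, went from 0.668 ± 0.422 to 7.72 ± 5.44 CPM (3.52 ± 0.75, edgeR adjusted p = 0.00321). Runx1, a blood stem cell factor, went from 36.8 ± 9.50 to 102 ± 13.2 CPM (1.47 ± 0.23, 0.000511), and Cbfa2t3, which encodes the corepressor ETO2 of the TAL1 complex, from 8.01 ± 2.10 to 26.9 ± 11.6 CPM (1.74 ± 0.37, 0.00292). Lyl1 (-1.70), Gatad1 (-1.02) and Gatad2a (-1.10) also fell, and Trps1, Gatad2b and Zfpm2 did not pass.

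In lung AML the partners that passed were Lmo2 (71.3 ± 30.8 to 14.1 ± 3.21 CPM, -2.33 ± 0.45, edgeR adjusted p = 0.025) and Cbfa2t3 (53.3 ± 18.9 to 17.7 ± 3.52 CPM, -1.59 ± 0.36, 0.047). This count of 2 was 0 without lung AML 1, 2 or 3 or lung control 2, and 1 without marrow AML 2, lung control 1 or 3, or any 1 marrow control library. Zfpm1 showed no resolved change in lung (0.02 ± 0.46, 0.994) while Gata1 rose. Lmo2 was lower with AML in both tissues, with a difference between the effects of -0.30 ± 0.61 (0.75), whereas Cbfa2t3 moved in opposite directions, with a difference of 3.34 ± 0.52 (0.000968).

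**Figure D4:**
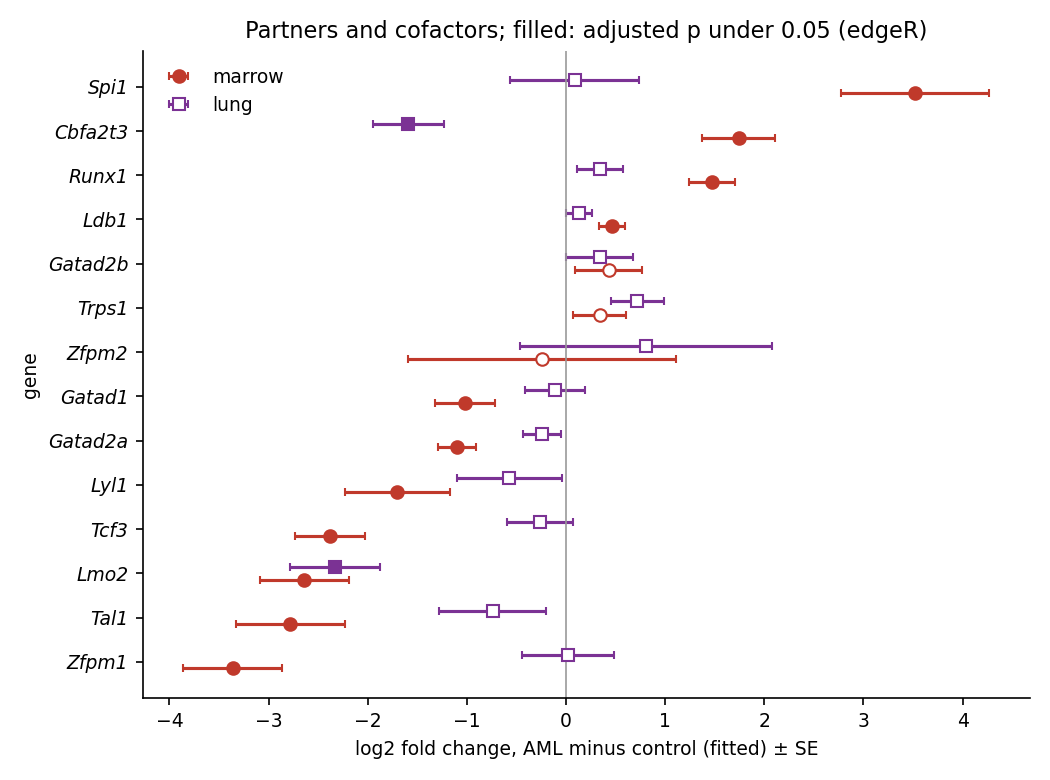
Fitted log2 fold change, AML minus control, with its SE (horizontal axis) for 14 GATA partners and cofactors (vertical axis) in marrow (circles) and lung (squares); filled symbols passed an adjusted p of 0.05 in edgeR's test. Zfpm1, at -3.36 in marrow, is at 0.02 in lung, and Spi1, Cbfa2t3, Runx1 and Ldb1 are the filled marrow symbols above 0.

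Erythroid genes known to depend on GATA1 fell almost throughout in marrow AML. Of 16, 15 were lower and 0 higher, where 23.5% of all genes were lower and 20.4% higher. Their median log2 difference was -3.55, beside -0.11 over all genes. Klf1, the erythroid Krüppel-like factor, went from 836 ± 7.90 to 124 ± 41.9 CPM (-2.75 ± 0.37, edgeR adjusted p = 0.000217), and Tfrc, the transferrin receptor, fell by 3.56 ± 0.35 on the log2 scale (3.87e-05). Fech and Urod, enzymes of haem synthesis, fell by 2.38 ± 0.22 (2.97e-05) and 2.33 ± 0.27 (9.1e-05). Rhag, a red cell membrane protein gene, was the 1 that did not pass (-1.17 ± 0.47, 0.0621). The count lower was 13 to 16 in the alternatives.

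In lung AML, 3 of the same 16 genes rose and 0 fell, with a median of 0.67, where 1.17% of all genes rose and 1.16% fell. Klf1 went from 0.738 ± 0.0456 to 10.9 ± 6.18 CPM (3.88 ± 0.42, edgeR adjusted p = 0.00239), Gfi1b, a repressor under GATA1, from 0.790 ± 0.442 to 11.2 ± 7.68 CPM (3.83 ± 0.57, 0.0104) and Rhag from 1.20 ± 0.235 to 39.9 ± 32.5 CPM (5.04 ± 0.57, 0.0025). Genes of late red cells did not rise with them. Alas2, which starts haem synthesis in red cells, stood at 13.9 ± 6.15 CPM in control and 2.42 ± 1.64 in AML (-2.52 ± 0.91, 0.183), and Hbb-bt, an adult globin gene, at 11.9 ± 5.90 and 3.10 ± 2.23 CPM (-1.95 ± 1.29, 0.541). The difference of the effects passed for 14 of 16, all lower in marrow, where 30.7% of all genes passed (16.1% lower).

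The summed erythroid list moved with Gata1 in marrow, at 12800, 13400 and 11700 CPM in control and 2620, 1350 and 939 CPM in AML libraries, and was 325 to 367 CPM in lung control and 357 to 519 in lung AML. Per 100 reads of the list, Gata1 had 3.18 to 3.48 reads in marrow control, 5.89 to 7.37 in marrow AML, 0.241 to 0.375 in lung control and 2.02 to 4.30 in lung AML. Gata1 was therefore higher relative to the summed list with AML in each tissue, with no overlap, although its level fell in marrow. In lung that sum was in large part Tfrc, Fech and Urod. These averaged 161, 71.8 and 68.1 CPM in lung control and 187, 94.6 and 71.2 CPM in lung AML. Klf1, Gfi1b and Rhag made up less of the lung sum and rose with Gata1. The part of erythroid cells in the Gata1 result was not tested.

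**Figure D5:**
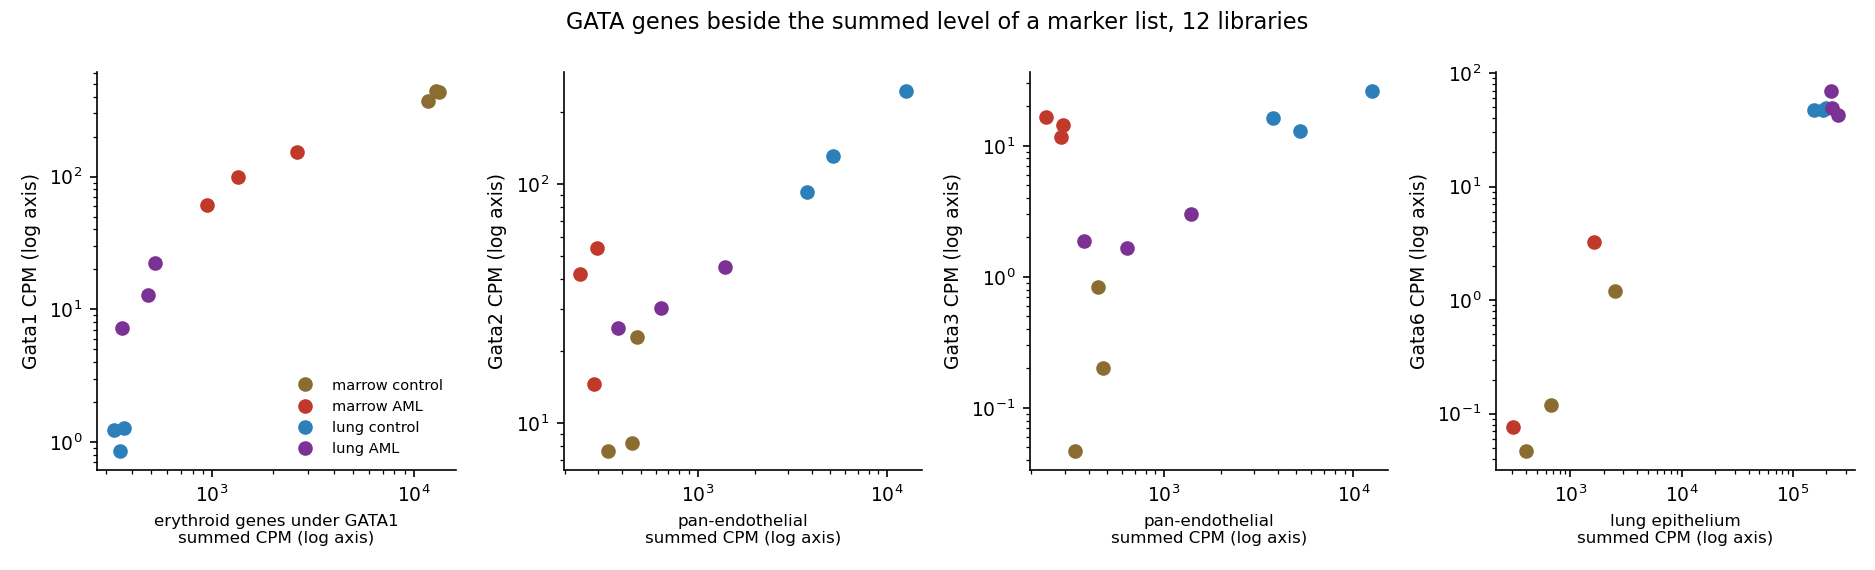
Level of a GATA gene (vertical axes, CPM, log) against the summed level of a marker list (horizontal axes, CPM, log) in 12 libraries coloured by group; from left, Gata1 with erythroid genes, Gata2 and Gata3 with endothelial genes and Gata6 with lung epithelial genes. Marrow AML 1, with 0 reads of Gata6, is not drawn in the last panel, and the marrow AML points lie above the marrow control points for Gata3 at a lower summed endothelial level.

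Of 20 endothelial genes, 8 fell and 1 rose in marrow AML (median -1.64), and 11 fell and 0 rose in lung AML (median -3.17). Tal1, also a partner of GATA1 in red cells, is among the 8 that fell in marrow (-2.78 ± 0.55, edgeR adjusted p = 0.00191). The 9 of 20 called in marrow are near the 43.8% of all genes called there, while the 11 of 20 in lung stand beside 2.33%. With limma-voom the marrow counts were 3 lower and 0 higher. The lung count was 1 without lung AML 1, 0 without lung AML 3, 2 without lung control 2, 6 without lung control 3 and 7 without marrow control 3, and was 18 with DESeq2, 17 with limma-voom and 5 with no filter. The gene encoding VE-cadherin, Cdh5, was lower with AML in marrow (-2.90 ± 0.82, edgeR adjusted p = 0.0141) and lung (-3.56 ± 0.74, 0.0325). Kdr, the VEGF receptor gene, fell by 3.56 ± 0.70 in marrow (0.00186) and by 3.96 ± 0.67 in lung (0.015). Pecam1, the CD31 gene, did not pass in either (adjusted p = 0.139 in marrow and 0.0919 in lung).

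Relative to that list, Gata3 differed between the tissues. Per 100 endothelial reads, Gata3 had 0.0138 to 0.186 in marrow control and 4.11 to 6.96 in marrow AML. In lung it had 0.211 to 0.430 in control and 0.214 to 0.497 in AML, which overlapped, so the lower Gata3 of lung AML came with a like reduction of the list. Gata2 had 1.83 to 4.83 reads per 100 endothelial reads in marrow control and 5.13 to 18.3 in marrow AML, and 1.97 to 2.52 in lung control against 3.22 to 6.62 in lung AML. Reads of Tal1, a gene shared with red cells, are part of the list in these ratios, and ratios without it were not computed. Of 10 endothelial genes with described GATA elements, 2 rose and 3 fell in marrow AML and 4 fell in lung AML. In marrow 5 of the 10 did not pass, so the share called was near the 43.8% of all genes called there. In lung 1.16% of all genes fell. The lung count was 0 without lung AML 1 or 3, 2 without lung control 2 and 7 without marrow AML 3, and the marrow count lower was 1 without marrow AML 1. The 2 that rose in marrow were Icam2, an adhesion molecule (9.44 ± 2.69 to 124 ± 23.9 CPM, 3.71 ± 0.51, 0.000234), and Vcam1 (135 ± 21.0 to 327 ± 73.6 CPM, 1.27 ± 0.22, 0.00085), and both fell in lung (-2.88 ± 0.48, 0.0148, and -1.05 ± 0.22, 0.0325).

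Mast cell and basophil genes, a known site of Gata1 and Gata2 use, rose in marrow AML in 6 of 8 tested of 12 listed, with 0 lower. Over all genes, 20.4% rose in marrow, and 2.33% were called in lung. Hdc, the histamine-forming enzyme, went from 1.70 ± 1.31 to 80.3 ± 30.1 CPM (5.54 ± 0.56, edgeR adjusted p = 4.37e-05), and Cpa3, a mast cell protease, from 1 read in the group to 1628. The count was 3 without marrow control 1 or marrow control 3, with limma-voom or with the stricter filter of 5 CPM in 3 libraries. The list summed to 10.3 to 40.2 CPM in marrow control and 119 to 244 in marrow AML. Kit, the stem cell factor receptor gene, at 86.5 ± 35.9 CPM, and Hdc made up most of the marrow AML sum. The mast cell genes Tpsb2, Tpsab1 and Mrgprb1 were at 0 in all 4 groups. Mcpt4 was at 0 in both marrow groups, with 2 reads in lung control and 3 in lung AML. In lung, 1 gene fell and 0 rose: Kit, from 295 ± 249 to 40.3 ± 2.18 CPM (-2.87 ± 0.63, 0.0405). Kit is also on the stem and progenitor list, and its rise in marrow (1.75 ± 0.61, edgeR adjusted p = 0.0356) counts in both. Of 10 stem and progenitor genes, 4 rose and 1 fell in marrow, among them Meis1 (2.23 ± 0.31, 0.000266) and Hoxa9 (1.60 ± 0.51, 0.0258), homeobox genes of blood progenitors, and Mecom, which fell by 3.50 ± 0.60 (0.000829). The 5 of 10 called are near the 43.8% of all genes. The count higher was 1 without marrow control 1 and 2 without marrow control 2 or 3 or lung AML 3.

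T cell and innate lymphoid genes, where GATA3 is best known, were mostly not called. The shares of all genes called were 43.8% in marrow (20.4% higher and 23.5% lower) and 2.33% in lung. In marrow AML 2 of 12 tested rose, Lat, an adaptor of T cell receptor signalling (5.91 ± 1.05, edgeR adjusted p = 0.00107), and Rora, an innate lymphoid nuclear receptor (2.41 ± 0.41, 0.00079), and 0 fell (3 and 1 without marrow control 1). The 14 listed genes summed to 85.9 to 118 CPM in marrow control and 116 to 125 in marrow AML. Cd3e, Cd8a and Ccr4 were at 0 in both marrow groups. Il7r was at 0 in marrow AML, with 11 reads in marrow control, and Cd4 and Icos were at 0 in marrow control. In lung AML 0 of 12 passed in edgeR, with 2 higher at an unadjusted p under 0.05, 2 with DESeq2 and 1 with limma-voom, and the sum was 139 to 165 CPM in control and 203 to 222 in AML. Few genes carry these sums: Rora alone stood at 66.8 ± 18.3 CPM in lung control and 153 ± 13 in lung AML, and Il1rl1, an interleukin receptor gene, at 88.6 ± 12.9 in marrow control and 59.0 ± 7.68 in marrow AML. The median log2 difference of the list in lung was -1.32, opposite in sign to its sum. Per 100 reads of this list, which are in large part reads of Rora and Il1rl1, Gata3 had 0.0393 to 0.976 in marrow control and 9.39 to 13.5 in marrow AML, and 7.89 to 19.0 in lung control and 0.819 to 1.35 in lung AML.

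Counts for markers of other cells stand beside 43.8% of all genes called in marrow AML and 2.33% in lung AML. Pericyte and smooth muscle genes rose in marrow AML in 10 of 12 (sum 215 to 705 CPM in control and 2600 to 9620 in AML). In lung 0 passed in edgeR, with 1 higher and 2 lower at an unadjusted p under 0.05, 1 and 1 with DESeq2 and 1 and 0 with limma-voom. Pan-leukocyte genes rose in 6 of 10 and fell in 2 in marrow AML (sum 129 to 184 and 187 to 273 CPM), with 0 of 10 in lung also at an unadjusted p under 0.05, with DESeq2 and with limma-voom, and Ptprc, the CD45 gene, passed in neither tissue (adjusted p = 0.219 and 0.837). Megakaryocyte and platelet genes split in marrow AML, 3 of 11 higher and 1 lower, with Itga2b up (3.02 ± 0.70, edgeR adjusted p = 0.00522) and Gp9 down (-4.42 ± 1.05, 0.0057), and 0 of 11 in lung in each of those ways. The count higher was 1 without marrow control 2. Fibroblast and stromal genes gave 3 higher and 2 lower of 10 in marrow and 1 and 1 in lung. The lung calls of that list, both directions together, were 0 to 3 with 1 library left out, and 3 without marrow AML 3. Eosinophil genes gave 0 of 3 tested in either tissue. At an unadjusted p under 0.05, 1 eosinophil gene was lower in marrow (1 with DESeq2, 0 with limma-voom) and 2 in lung (1 and 2). Lung epithelial genes gave 1 of 15 higher in marrow AML and 1 lower in lung AML, Hopx in both (2.42 ± 0.28, 9.88e-05, and -1.71 ± 0.27, 0.0118). Without marrow AML 3 the marrow count was 1 higher and 4 lower, and without marrow control 2 it was 3 higher. Marrow sinusoidal genes gave 2 higher and 1 lower of 7 in marrow AML and 0 and 1 in lung AML, where the count lower was 3 with DESeq2 or without marrow AML 3 and 2 with limma-voom or the lung libraries alone. The part of these cells in the GATA results was not tested.

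The genes whose profile over the 12 libraries was most like each member were found by Pearson correlation of log2 CPM among up to 11343 genes averaging 5 CPM or more. The 12 libraries fall into 4 groups, so the values mainly describe group differences and carry no p. For Gata1 they were Klf1 (r = 0.997), Gfi1b (0.995), Abcb4 (0.993) and Car1 (0.992), 3 of which are known erythroid genes; Car1, an abundant red cell carbonic anhydrase, went from 2200 ± 101 CPM in marrow control to 529 ± 225 in marrow AML, and from 1.99 ± 0.382 in lung control to 23.1 ± 15.5 in lung AML. For Gata2 they were Cbfa2t3 (0.951), Casc4 (0.936), Pcdh1 (0.931) and Atp13a2 (0.928).

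For Gata3 the nearest were Ripply3 (0.971), Psmb8 (0.969), Tspan17 (0.960) and Ppp1r11 (0.956). Ripply3, a transcriptional repressor, stood at 2.24 ± 0.908 CPM in marrow control, 71.0 ± 6.29 in marrow AML, 83.3 ± 54.7 in lung control and 14.4 ± 2.57 in lung AML. For Gata4 they were Lyz1 (0.945), Sec1 (0.944), Adgrl3 (0.943) and Hoxb5 (0.942), for Gata5 C2cd4b (0.992), Fgfbp1 (0.991), Wnt3a (0.989) and Osbpl7 (0.989), and for Gata6 Pde8b (0.992), Chil1 (0.991), Kif16b (0.988) and Areg (0.988). Lung transcripts, low in marrow, make up the Gata6 set: Chil1 stood at 3980 ± 325 CPM in lung control and 4690 ± 325 in lung AML. Among the members themselves, Gata5 and Gata6 had r = 0.95, Gata4 and Gata5 0.91, Gata2 and Gata3 0.75, Gata1 and Gata2 -0.84 and Gata1 and Gata6 -0.85.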

How the data were processed

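Gene counts per library were deposited by the authors, one table per library. Per the submitters' processing notes bcl2fastq and STAR were used with mm10; their versions, the counter and the annotation were not given in the sources used here, and the deposited tables are named as unstranded. Low-input libraries were made with a SMART-seq v4 kit, per the labels' protocols. Symbols were matched to GENCODE M21 (GRCm38) for positions and exon lengths, and to RefSeq (GRCm38.p6) for upstream windows. One edgeR 4.0.16 quasi-likelihood model (R 4.3.3, limma 3.58.1, TMM, filterByExpr by group with a minimum count of 10 and a total of 15) held all 12 libraries and 4 groups, with 8 residual degrees of freedom and Benjamini-Hochberg adjustment over 18147 genes, at 0.05. SEs are the log2 fold change over the square root of its F statistic. The log2 CPM values used for correlations had a prior count of 2, and fitted fold changes used edgeR's default. Levels are TMM-scaled CPM.

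Alternatives were DESeq2 1.42.0, DESeq2 size factors in edgeR, limma-voom, library totals, no filter, 5 CPM in 3 libraries and only the compared libraries. Others were a model with the replicate block, a fit without edgeR's robust option, which the main model used, and fits that leave out 1 library at a time. The model was tested on simulated data for the marrow AML comparison over 18147 genes: of 50 genes each, 49 with a 4-fold rise, 46 with a fall to 0.25, 5 with a 2-fold rise and 10 with a fall to 0.5 were called. All 12 simulated libraries were drawn from the marrow control means, without tissue differences, and with the same spread between libraries for every gene. Changed genes were picked only among those well counted in marrow control. These recovery counts therefore do not describe members with few reads there, Gata3 to Gata6. The members and gene lists were chosen with earlier results of these data known. Named genes were the 6 members, per list up to 4 genes with the smallest p in a comparison, Cdh5, Pecam1 and Ptprc, and the 4 genes best correlated with each member; other partner genes, Hbb-bt, Rhag in marrow, Il1rl1, Icam2 and Vcam1 where outside it, and markers at 0 were named after their values were seen. List counts under the alternatives were added after seeing the data.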

Additional observations from a re-analysis of the deposited data

Results flagged for a closer look

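The AML effect differed between marrow and lung, by a test of the difference itself, in 3 members. For Gata1 the marrow effect minus the lung effect was -5.66 on the log2 scale (edgeR adjusted p = 0.000188), with all AML libraries below all controls in marrow and above them in lung. For Gata2 it was 3.74 (0.00521), with overlapping ranges in marrow. For Gata3 it was 8.42 (0.00026), with all AML libraries above all controls in marrow and below them in lung. The erythroid, endothelial and other marker lists that moved with the groups are given beside the results, and their part in these differences was not tested.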

How the results depend on the processing

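Over all alternatives, 578 of 614 values of the 6 members kept their direction and side of the threshold; 17 lost a call, 5 gained one and 14 changed sign. Gata1 in both tissues, Gata3 in marrow, the differences of effects of Gata1, Gata2 and Gata3 and all control-tissue differences tested passed in every alternative run. Sign changes fell on members that had not passed. With limma-voom, Gata2 between AML tissues was -0.09, and Gata6 was -0.15 (difference of effects) and -0.01 (marrow). Leaving out 1 library gave these ranges: Gata2 between AML tissues -0.25 (without marrow AML 1) to 0.54; Gata4 -3.35 to 0.13 (difference), -3.48 to 0.00 (marrow; both upper ends without marrow control 2) and -0.59 to 0.31 (lung, without lung AML 3); Gata5 -3.06 to 0.24 (difference) and -2.06 to 1.24 (marrow; upper ends without marrow control 2); Gata6 -3.33 to 3.62 (difference) and -3.15 to 3.8 (marrow; lower ends without marrow AML 3), and -0.05 to 0.38 (lung). The causes were not tested.

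Of genes tested, 423 were called in lung AML, against 1632 with DESeq2, 873 with limma-voom and 1239 with the lung libraries alone; leaving out 1 library gave 72 (without lung AML 1) to 761 (without marrow AML 3), with 248 and 83 without lung AML 2 or 3 and 218 and 116 without lung control 1 or 2. Leaving out 1 library gave 6418 to 8589 calls in marrow AML, 4181 to 6417 for the difference, 10374 to 12802 between control tissues and 6859 to 9622 between AML tissues. Gata3 in marrow AML was 17.3 CPM with library totals, and Gata6 in lung control 49.3 CPM with DESeq2 size factors and 45.8 CPM with library totals. A filter of 5 CPM in 3 libraries left Gata4 untested.

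Replicate numbers did not pair the libraries: correlations of same-numbered deviations were -0.16 to 0.18 over 12 pairs, with 2 over 0.1, and 2 or 3 of 6 libraries correlated best with their own number. With the replicate block, calls were 7253 in marrow AML, 331 in lung AML, 4924 for the difference, 11255 between control tissues and 8250 between AML tissues, and Gata2 and Gata3 in lung moved to -2.17 (adjusted p = 0.0457) and -3.08 (0.0632). Gata4 in all groups and Gata5 in marrow had few reads, and the Gata6 sign in marrow rests on marrow AML 3, with 93 reads.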
